A study of Homo sapiens with 6 samples.

Results

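The genes described here are 10 YAP and TEAD target genes and pathway members: CCN1, CCN2, ANKRD1, AMOTL2, LATS2, TEAD1, YAP1, AXL, CRIM1 and THBS1. Every probe set whose platform annotation gave exactly 1 of these symbols was taken, which gave 16 of the 22215 probe sets of the table, for 9 genes of 11963 with a probe set of their own. LATS2, a kinase of the pathway, had no such probe set, so no signal of it is described here. All cells were HCT116, an established human colon cancer line, and all carried a short hairpin RNA stably delivered by the lentiviral vector FUGW. In the NFX1-91 shRNA group (3 arrays) the hairpin was directed at NFX1-91, a splice form of the zinc finger protein NFX1. In the control group (3 arrays) it was directed at β-galactosidase, a bacterial enzyme. The labels do not say whether a group was a clone or a pool of cells, nor whether its arrays are separate cultures; p-values thus cover only the spread among the 6 hybridised samples, which can be technical.

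YAP1 and its relative TAZ (gene WWTR1) are transcriptional coactivators without a DNA-binding domain of their own. In the nucleus they bind TEAD factors, which recognise the letters GGAATG, and switch on genes of growth, adhesion and the extracellular matrix. The Hippo kinase cascade, in which MST kinases (STK3, STK4) act on LATS kinases with the help of SAV1, MOB1 and NF2, phosphorylates YAP and TAZ and keeps them in the cytoplasm. Angiomotins such as AMOTL2 bind YAP at cell junctions. In intestinal epithelium the pathway is best known for its part in regeneration after injury and in tumour growth.

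Each deposited value is a share of the summed intensity of its array. Each array was multiplied to a mean of 500, and values on that scale are called signals. The signal depends on the probes, so signals of different probe sets are not set against each other. Correlations between arrays (Pearson, on log2(signal + 16)) were 0.992 to 0.995 within groups and 0.983 to 0.985 between groups, and the number of arrays limits the precision. Fold changes are differences of log2(signal + 16), NFX1-91 shRNA minus control, and are smaller than the change in signal where the signal is low. Calls are limma calls at a Benjamini-Hochberg adjusted p under 0.05 over all 22215 probe sets unless stated otherwise. The 3 NFX1 probe sets check the labels. On the brightest the control arrays read 160, 144 and 139 and those of the NFX1-91 hairpin 124, 139 and 138 (log2 fold change -0.13, SE 0.096, limma adjusted p = 0.400). The middle one read -0.06 (SE 0.122, limma adjusted p = 0.775). The dimmest fell by 0.60 (SE 0.143, limma adjusted p = 0.0137), from 16.8, 17.7 and 24.4 to 8.87, 8.83 and 4.56. An exact permutation test (two-sided) gave p = 0.2, 0.5 and 0.1 in that order, and 3 arrays against 3 cannot go below 0.1. Which NFX1 form each of them reads was not tested, so the groups are those of the labels.

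Of 11 epithelial markers EPCAM, KRT8, KRT18 and KRT19 had signals of 3891 or more on every array, whereas VIL1 and LGALS4, genes of differentiated colon cells, had means below the offset of 16 in both groups. KRT8 and KRT18 rose, by 0.35 and 0.54, and EPCAM, CDH1 and KRT20 fell, by 0.15, 0.50 and 0.60 (limma, adjusted over genes). Of 9 fibroblast markers 0 were called (limma, adjusted over genes), where 32.5% of all genes were called, and 4 had means below the offset in both groups. Their summed signal was 298 to 383 in control arrays and 329 to 389 in NFX1-91 shRNA arrays. These ranges overlap, and most of each sum was the single COL1A1 probe set, with means of 189 and 193. The part of other cell types in the results was not tested.

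The members did not move as 1 group. CCN2, THBS1 and CRIM1 rose in cells with the NFX1-91 hairpin, and AMOTL2 fell. For CCN1, ANKRD1, TEAD1, YAP1 and AXL no probe set passed. The members were chosen with earlier results of these data known, so the shares and medians given here are not a test. By probe set, 5 of 16 were higher and 1 was lower, against 12.0% and 13.7% of all probe sets. The share called in either direction over all probe sets was 25.7%. The median log2 fold change of the 16 was 0.23, against 0.0099 over all probe sets. With each gene represented by its brightest probe set, 3 of 9 members were higher and 1 was lower, where 14.7% and 17.8% of all genes were called. The arrays of the 2 groups did not overlap for 9 of the 16 probe sets, against 39.0% of all probe sets. Higher calls numbered 3 of 16 without control array 3 and also without NFX1-91 shRNA array 2. In these bulk samples, a change in every cell and a change in part of the cells cannot be told apart.

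**Figure D1:**
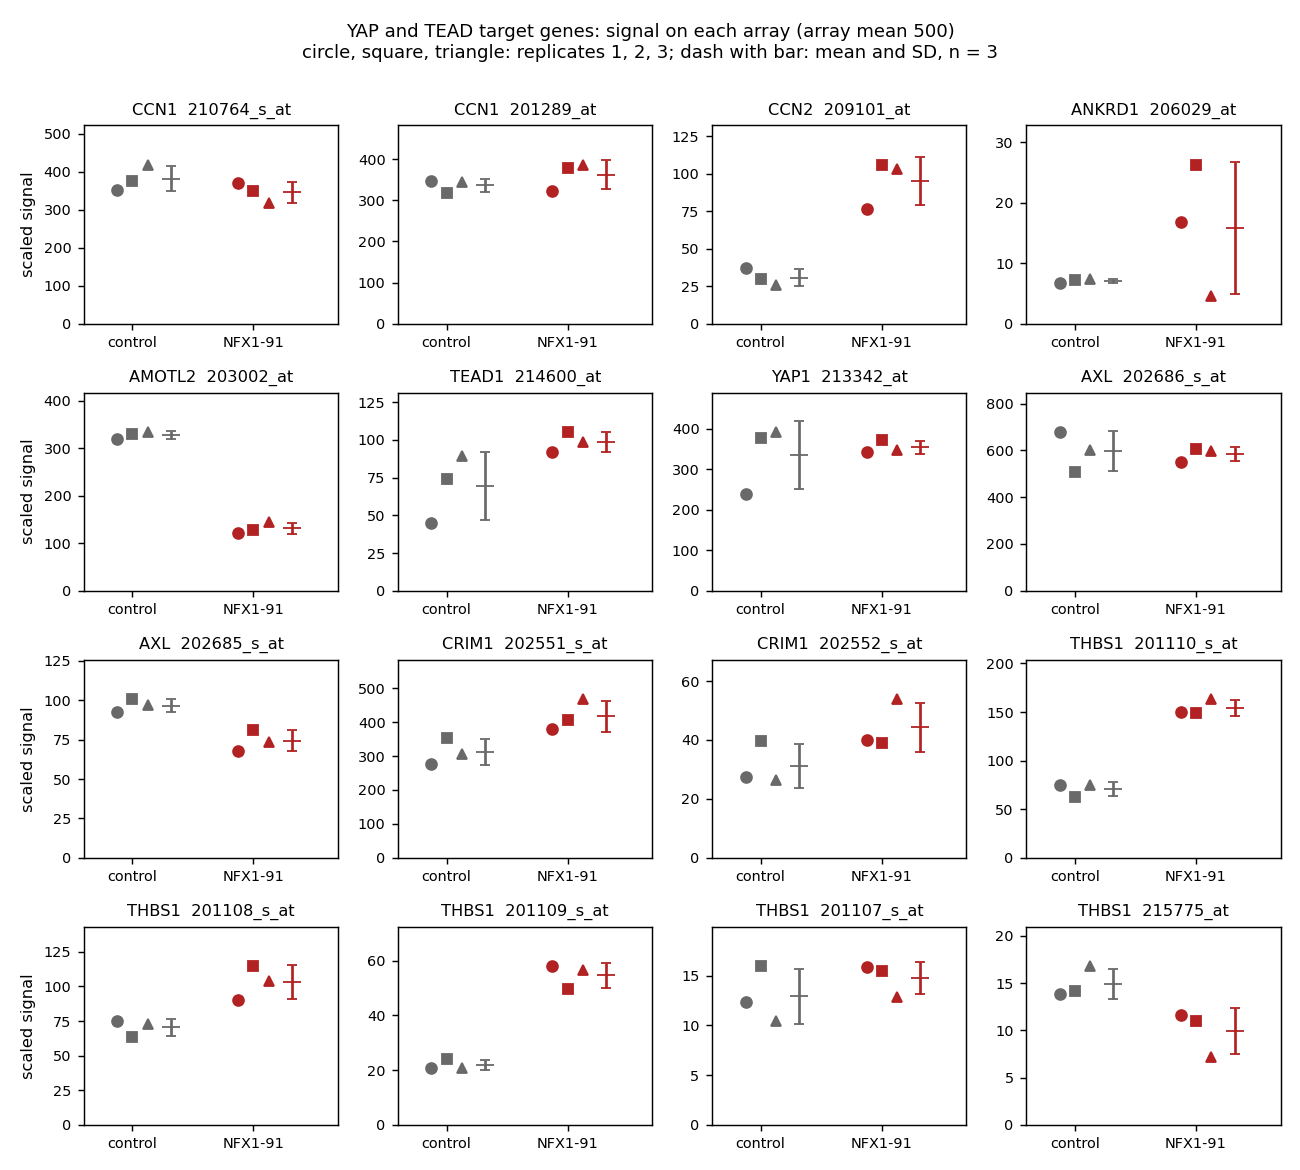
Signal (array mean 500, linear axis from 0) of each of the 16 member probe sets on the 3 control arrays (grey) and the 3 NFX1-91 shRNA arrays (red); circle, square and triangle are replicates 1, 2 and 3, and the dash with its bar is the mean with the SD (n = 3). CCN2 lies between 26.0 and 36.7 in control arrays and between 76.7 and 106 in NFX1-91 shRNA arrays, while AMOTL2 goes from 318 or more to 143 or less.

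**Figure D2:**
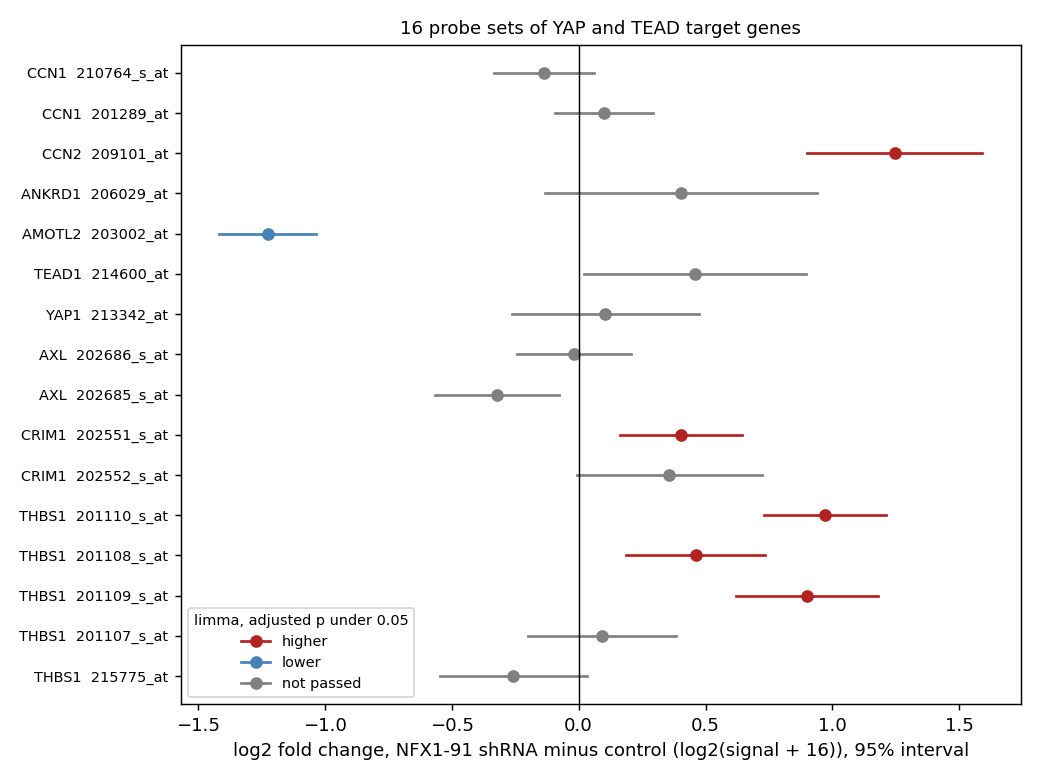
Log2 fold change (points, NFX1-91 shRNA minus control, on log2(signal + 16)) of the 16 member probe sets with the 95% interval of the limma fit, not adjusted for the number of probe sets. Red marks the 5 higher calls, blue the 1 lower call and grey the 10 that did not pass; AMOTL2 at -1.22 and CCN2 at 1.24 lie farthest from 0.

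CCN2, a secreted matrix-associated protein and the most widely used readout of YAP and TEAD activity, had the largest rise of the members. Its single probe set read 36.7, 29.4 and 26.0 in the control arrays and 76.7, 106 and 103 in the NFX1-91 shRNA arrays. All 3 NFX1-91 shRNA arrays lay above the highest control array. The mean signal went from 30.7 ± 5.50 to 95.0 ± 15.9 (SD, n = 3 per group), 3.09 times as high. The log2 fold change was 1.24 (SE 0.152, limma adjusted p = 0.000437). It was called in each of 14 alternative settings, with values from 0.74 to 1.60.

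The stretch before the CCN2 start is shown because it holds the TEAD letters more than once. It is the 250 bases before the RefSeq start on GRCh38.p14, chr6:131951373-131951622, minus strand, written 5′ to 3′ with each GGAATG, or its reverse complement CATTCC, in capitals.
CCN2: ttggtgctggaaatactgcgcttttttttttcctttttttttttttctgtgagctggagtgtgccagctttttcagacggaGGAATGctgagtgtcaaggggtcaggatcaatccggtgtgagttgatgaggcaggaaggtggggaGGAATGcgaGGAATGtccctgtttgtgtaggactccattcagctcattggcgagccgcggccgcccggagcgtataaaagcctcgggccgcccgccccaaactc
The motif begins 169, 104 and 95 bases before the start. At least 1 such motif on either strand was found in 11.9% of 35116 RefSeq promoter windows of the same length, and 3 or more in 0.0826% of them. These are matches of letters, and no binding was measured here.

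THBS1, the adhesive matrix glycoprotein thrombospondin 1, was read by 5 probe sets, of which 3 rose. The brightest, 201110_s_at, read 74.5, 62.6 and 75.4 in control arrays and 150, 149 and 163 in NFX1-91 shRNA arrays, so that the groups did not overlap. Its mean was 2.17 times as high (log2 fold change 0.97, SE 0.106, limma adjusted p = 0.000236). A second one, 201109_s_at, read 20.6, 24.2 and 21.0 against 57.9, 49.6 and 56.8, again without overlap (log2 fold change 0.90, SE 0.123, limma adjusted p = 0.000804). For 201108_s_at the control arrays read 74.8, 63.5 and 72.8 and the NFX1-91 shRNA arrays 90.4, 115 and 104. That rise was smaller (log2 fold change 0.46, SE 0.120, limma adjusted p = 0.0213) and did not pass without control array 2 (0.0875), without control array 3 (0.0503), without NFX1-91 shRNA array 2 (0.100) or without NFX1-91 shRNA array 3 (0.0628).

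The other two THBS1 probe sets were dim and did not pass. The signals of 201107_s_at were 12.4, 15.9 and 10.5 against 15.8, 15.5 and 12.9 (log2 fold change 0.09, SE 0.128, limma adjusted p = 0.683). For 215775_at they were 13.8, 14.2 and 16.8 against 11.7, 11.0 and 7.19, lower in each NFX1-91 shRNA array (log2 fold change -0.26, SE 0.127, limma adjusted p = 0.191). The log2 fold change of 201110_s_at exceeded that of 201107_s_at by 0.88 (SE 0.162) and that of 215775_at by 1.23 (SE 0.141). Both differences were called (limma adjusted p = 0.0478 and 0.0111 over pairs of probe sets of 1 gene). Signals at or near the offset of 16 can show little of a change, so these 2 calls are not read as different changes of the transcripts. The log2 fold change of the brightest probe set exceeded that of 201108_s_at by 0.51 (SE 0.102), with a limma adjusted p = 0.0558 over 7101 pairs of probe sets of 1 gene, of which 2.38% were called. What each probe set reads of the THBS1 transcript was not tested.

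The window before the THBS1 start, chr15:39580829-39581078 on GRCh38.p14, plus strand, is shown because it holds 1 TEAD motif close to the start.
THBS1: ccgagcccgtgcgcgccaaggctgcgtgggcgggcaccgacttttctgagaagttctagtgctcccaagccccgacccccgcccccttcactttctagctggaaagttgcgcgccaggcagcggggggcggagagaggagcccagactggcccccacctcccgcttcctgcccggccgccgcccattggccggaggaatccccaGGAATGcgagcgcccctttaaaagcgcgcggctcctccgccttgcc
The motif in capitals begins 46 bases before the start.

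CRIM1, a membrane protein with cysteine-rich repeats that binds BMP ligands, rose on 1 of its 2 probe sets. The brighter one read 277, 353 and 306 in control arrays and 379, 406 and 468 in NFX1-91 shRNA arrays, with no overlap. The log2 fold change of 0.40 passed (SE 0.105, limma adjusted p = 0.0216). It did not pass without control array 3 (0.0687), without NFX1-91 shRNA array 2 (0.0713), without NFX1-91 shRNA array 3 (0.0781) or without a variance trend (0.0550). The other one read 27.6, 39.7 and 26.2 against a range of 39.1 to 53.8, where control array 2 lay inside the NFX1-91 shRNA range. Its log2 fold change of 0.36 (SE 0.160, limma adjusted p = 0.150) did not pass. The 2 fold changes differed by 0.05, with a 95% interval from -0.23 to 0.32.

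AMOTL2, an angiomotin that binds YAP at junctions and is itself a YAP target, fell. The control arrays read 318, 331 and 333, and the NFX1-91 shRNA arrays 121, 129 and 143. The groups were far apart compared with their spread, with means of 327 ± 8.13 and 131 ± 11.2 (SD, n = 3 per group), and the control mean was 2.50 times the other. The log2 fold change was -1.22 (SE 0.084, limma adjusted p = 2.52e-05). It was called in each of 14 alternative settings, with an adjusted p of at most 0.000692. AMOTL2 therefore moved against CCN2 and THBS1, and its relative AMOT, at a signal around the offset, did not pass (log2 fold change -0.0041, SE 0.178, limma adjusted p = 0.991 over genes).

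RefSeq gives AMOTL2 2 starts, and the window of the downstream one, chr3:134374448-134374697 on GRCh38.p14, minus strand, is shown for comparison with those of the genes that rose.
AMOTL2: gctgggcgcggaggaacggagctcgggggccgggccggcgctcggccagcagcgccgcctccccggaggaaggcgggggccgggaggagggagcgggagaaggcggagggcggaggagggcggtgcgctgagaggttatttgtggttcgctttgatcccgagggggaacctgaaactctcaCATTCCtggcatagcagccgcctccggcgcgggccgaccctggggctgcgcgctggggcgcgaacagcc
It holds 1 TEAD motif, in the reverse orientation, whose first base lies 69 bases before the start. The window of the upstream start holds 0. Of the 10 genes 7 had a promoter entry, LATS2 among them, with 9 windows in all, and 6 of these windows held the motif. Of all 35116 RefSeq windows 11.9% held it. The members were listed as YAP and TEAD targets or pathway members, so the 2 shares are not a test. CCN1, TEAD1 and CRIM1 had no entry.

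CCN1, the closest relative of CCN2 and likewise a secreted matrix protein and a standard YAP target, did not pass on either of its 2 probe sets. The brighter one read 352, 375 and 417 in control arrays and 371, 349 and 317 in NFX1-91 shRNA arrays. The difference in log2 was -0.14, with a 95% interval from -0.33 to 0.06 (limma adjusted p = 0.309). The second one read 348, 317 and 344 against 322, 379 and 386, with a log2 fold change of 0.10 and an interval from -0.09 to 0.29 (limma adjusted p = 0.472). The groups overlapped on both probe sets, whose differences had opposite signs. Both intervals lie below the interval of the CCN2 rise, 0.90 to 1.59. The difference between the 2 genes was not itself tested.

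ANKRD1, an ankyrin repeat protein of muscle nuclei and sarcomeres that is a strong YAP target in many cells, was dim. Its control arrays read 6.76, 7.15 and 7.34, and the NFX1-91 shRNA arrays 16.9, 26.2 and 4.51. NFX1-91 shRNA arrays 1 and 2 lay above all control arrays and array 3 below them. The log2 fold change was 0.40 (SE 0.235, limma adjusted p = 0.269). Without NFX1-91 shRNA array 3 it was 0.69 (limma adjusted p = 0.0177), and with array weights 0.62 (limma adjusted p = 0.0474). TGANTCA, where N is any base, was used as a loose pattern for AP-1. The ANKRD1 window is shown as the only one of the 9 member windows with a match to it beside the TEAD letters.
ANKRD1: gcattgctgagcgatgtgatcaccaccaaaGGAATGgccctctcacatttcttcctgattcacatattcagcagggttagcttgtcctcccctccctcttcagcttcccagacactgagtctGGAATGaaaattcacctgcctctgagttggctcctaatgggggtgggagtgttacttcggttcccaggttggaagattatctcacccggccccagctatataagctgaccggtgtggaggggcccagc
It lies at chr10:90921088-90921337 on GRCh38.p14, minus strand, and its 2 TEAD motifs (capitals) begin 220 and 128 bases before the start. The match to TGANTCA reads TGATTCA, begins 195 bases before the start and does not overlap a TEAD motif. Of all windows 6.57% held a match to this pattern. The pattern is its own reverse complement, so every match lies on both strands.

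AXL, a receptor tyrosine kinase for the ligand GAS6, had 2 probe sets and 0 calls. The brighter one read 678, 508 and 602 in control arrays and 550, 607 and 596 in NFX1-91 shRNA arrays, with full overlap. Its log2 fold change of -0.02 had a 95% interval from -0.24 to 0.21 (limma adjusted p = 0.926). The other read 92.3, 101 and 97.0 against 67.9, 81.4 and 73.5, lower in every NFX1-91 shRNA array (log2 fold change -0.32, SE 0.108, limma adjusted p = 0.0602). It passed with dim probe sets left out (adjusted p = 0.0292), without a variance trend (0.0328) and with array weights (0.0420).

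YAP1 itself, the coactivator, read 238, 376 and 392 in control arrays and 342, 372 and 348 in NFX1-91 shRNA arrays. Control array 1 was the lowest of all 6. The log2 fold change of 0.10 had a 95% interval from -0.26 to 0.47 (limma adjusted p = 0.714), and without control array 1 it was -0.11. TEAD1, a DNA-binding partner of YAP, read 44.6, 74.1 and 89.4 against 91.8, 105 and 98.4. The groups did not overlap, though control array 1 was again the lowest, and the log2 fold change of 0.46 (SE 0.192, limma adjusted p = 0.124) did not pass. It was 0.23 without control array 1. Adjusted over genes, its p was 0.0902, and it passed by median centring (0.0479), with dim probe sets left out (0.0387), with array weights (0.0447) and without control array 3 (0.0296).

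The rest of the pathway was read by the brightest probe set of each gene, with limma adjusted over 11963 genes, of which 32.5% were called. These lists were also chosen with earlier results known, so their shares and medians are not tests. Among 5 measured coactivators and TEAD factors outside the members, 1 was higher and 1 lower. WWTR1, which encodes TAZ, rose from 731, 735 and 756 to 1213, 1265 and 1380. All NFX1-91 shRNA arrays lay above all control arrays (log2 fold change 0.78, SE 0.056, limma adjusted p = 7.62e-06). The other two WWTR1 probe sets rose as well, by 0.71 and 0.78 (limma adjusted p = 0.00202 and 0.000459 over probe sets). TEAD3 fell from 198, 213 and 212 to 143, 158 and 159, without overlap (log2 fold change -0.40, SE 0.085, limma adjusted p = 0.00467). TEAD4, VGLL1 and VGLL4 did not pass. The list's median log2 fold change was 0.13, against 0.0036 over all genes.

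Of 13 measured upstream kinases and scaffolds 4 were higher, 2 lower and 7 did not pass, where 14.7% of all genes were higher and 17.8% lower. The median log2 fold change of this list was 0.15, against 0.0036 over all genes. SAV1, the scaffold of the MST kinases, rose by 0.49, MAP4K4, a kinase acting in parallel to them, by 0.40, the scaffold WWC1 by 0.40 and the MST2 kinase STK3 by 0.20. STK3 did not pass in 7 of 16 alternatives, among them without control array 2, control array 3, NFX1-91 shRNA array 2 or NFX1-91 shRNA array 3. Its second probe set read 0.02 (limma adjusted p = 0.967 over probe sets). The mean over its probe sets gave 0.11 (limma adjusted p = 0.475 over genes). WWC1 did not pass without NFX1-91 shRNA array 2 or 3 (0.0651 and 0.0597), although its second probe set also rose, by 0.42. RASSF1, a scaffold that binds MST kinases, fell by 0.35, and did not pass without control array 2 (0.0737). For NF2, the membrane scaffold merlin, 1 of 7 probe sets fell (log2 fold change -0.75, limma adjusted p = 0.00182 over probe sets) and 6 did not pass, and the mean over its probe sets gave -0.07 (limma adjusted p = 0.715 over genes). LATS1, the measured LATS kinase, read 41.3, 50.4 and 62.5 against 73.6, 71.1 and 50.7 and did not pass (log2 fold change 0.27, limma adjusted p = 0.258). Higher calls in this list numbered 2 without NFX1-91 shRNA array 2 or 3, and lower calls 1 without control array 2.

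Of 13 measured genes of a published signature of YAP and TAZ targets, with the members taken out, 4 were higher, 3 lower and 6 did not pass. Of all genes 14.7% were higher and 17.8% lower. The median log2 fold change of the 13 was 0.18, against 0.0036 over all genes. F3, which encodes tissue factor, rose from 197, 201 and 208 to 501, 569 and 591 (log2 fold change 1.38, SE 0.077, limma adjusted p = 1.82e-06). NT5E, the ectonucleotidase CD73, rose from 340, 329 and 308 to 814, 782 and 710 (log2 fold change 1.20, SE 0.069, limma adjusted p = 2.06e-06). In both the groups were well separated. ASAP1, which regulates ARF GTPases, rose by 0.68 (limma adjusted p = 6.57e-05). ARHGEF17, at a low signal, rose by 0.77 and did not pass without NFX1-91 shRNA array 1 (0.0699) or 3 (0.0663). FJX1, a secreted protein, fell by 0.54 and the stress gene GADD45A by 0.34 (limma adjusted p = 0.00154 and 0.000438). MYOF, a ferlin of the plasma membrane, fell by 0.20 on its brightest probe set, while its other two probe sets did not pass. IGFBP3, FOXF2, DOCK5, PTPN14, TGFB2 and RBMS3 did not pass. Of 2 other reported targets measured, BIRC5 did not pass on its brightest probe set, but was called lower with shared probe sets left out. EDN1 was called higher at signals below the offset on all arrays (log2 fold change 0.46, limma adjusted p = 0.0461), and 8 of 15 alternatives did not call it, among them those without control array 1 or 3 or NFX1-91 shRNA array 1 or 3.

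**Figure D3:**
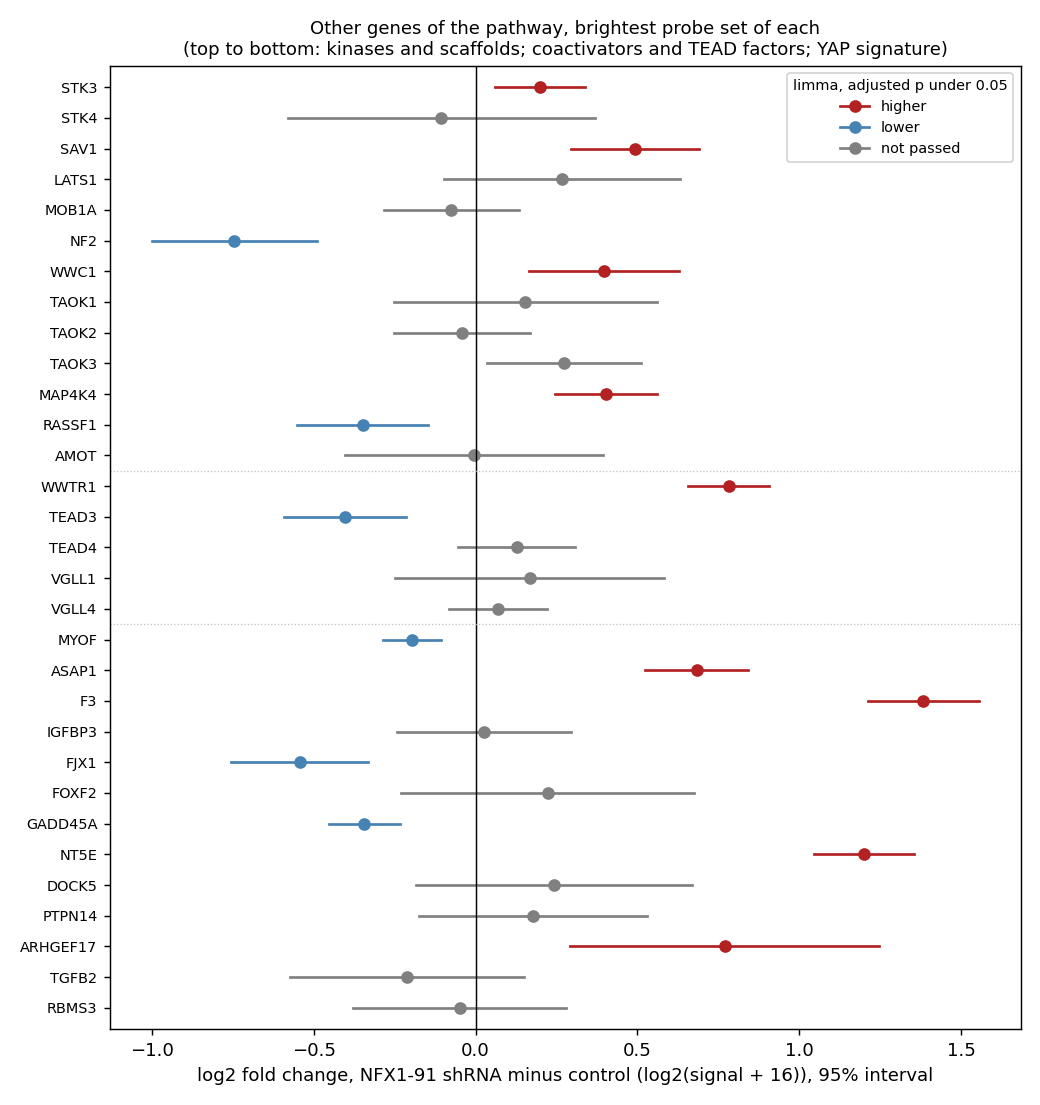
Log2 fold change (points, NFX1-91 shRNA minus control, on log2(signal + 16)) with the 95% limma interval, not adjusted for the number of genes, of the brightest probe set of other pathway genes; dotted lines separate 13 kinases and scaffolds, 5 coactivators and TEAD factors and 13 signature genes. F3 at 1.38, NT5E at 1.20 and WWTR1 at 0.78 lie to the right, and NF2 at -0.75 and FJX1 at -0.54 to the left. For NF2 the other probe sets, 6 of 7, did not pass. Each block holds genes called in both directions.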

How the data were processed

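Biotin-labelled RNA was measured on Affymetrix arrays, per the labels' protocols. The authors deposited intensity values on a linear scale in which each column sums to 1. The summary and scaling of the probes are not given in the sources used here. Arrays were scaled to a mean of 500 and log2(signal + 16) was taken, with no further normalization. Between 24.1% and 25.9% of probe sets lay below the offset, and 397 to 451 values per array repeat 1 low value. Of the probe sets 19064 had 1 gene in the platform annotation, 1043 several and 2108 none listed.

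Groups came from the labels and were tested by limma 3.58.1 under R 4.3.3 (variance trend, unpaired, two-sided), over all probe sets and, for gene counts, over the brightest probe set (by mean signal) of each gene. Pairs of probe sets of 1 gene were compared by their log2 difference per array. The steps were tested on simulated data. Sequences are from RefSeq (GRCh38.p14). Figures used Python 3.11.15 and matplotlib 3.10.9.

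The members and lists were chosen with earlier results of these data known. The rule named all member probe sets, NFX1, at most 5 called genes per list by adjusted p and the 3 genes closest to CCN2; further list genes are named to account for their list. Marker lists were colon epithelial (2 of 11 higher, 3 lower), fibroblast, blood cell (0 of 4 called) and endothelial (1 of 4 lower, KDR). Of all genes 14.7% were higher and 17.8% lower. The alternative settings were an offset of 1 or 64, median centring, quantile normalization, a filter on the dimmest 40% of probe sets, array weights, a fit without the variance trend, a fit with the replicate number as block, each array left out in turn, averaging the probe sets of a gene, and leaving out shared probe sets (names ending in _s_at or _x_at) where a gene has another kind.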

Additional observations from a re-analysis of the deposited data

How the results depend on the processing

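Of 219 values of member probe sets under alternatives, 199 kept direction and side of the threshold, 9 lost the call, 5 gained it and 6 changed sign, none of these 6 being called. Those 6 were the brighter AXL probe set (0.033 by quantile normalization, 0.010 by median centring, 0.098 with array weights, -0.13 to 0.077 leaving out 1 array each) and YAP1 (-0.11 to 0.23 leaving out 1 array each). Lower member probe sets numbered 2 with dim probe sets left out, without a variance trend and with array weights, and higher ones 3 to 5 leaving out 1 array each. By gene, higher members numbered 5 with array weights. With shared probe sets left out CCN1 read 0.10, THBS1 -0.26 and MYOF 0.19. Pairs of member probe sets called, each holding a THBS1 probe set near or below the offset, numbered 2, and 1 with dim probe sets left out, 0 with an offset of 1, 0 to 1 leaving out 1 array each, and 0 under the replicate block. With an offset of 1 the difference between probe sets was -0.083 for CRIM1 and -0.17 for THBS1 201110_s_at minus 201109_s_at (-0.041 to 0.13 leaving out 1 array each). The middle NFX1 probe set read -0.14 to 0.0069 leaving out 1 array each, and its difference from the brightest -0.15 to 0.00023. Upstream genes called numbered 2 to 5 higher and 1 to 3 lower, and relatives 0 to 1 higher, leaving out 1 array each. Other reported targets called higher numbered 0 by quantile normalization, with dim probe sets left out and with an offset of 64. They also numbered 0 with array weights and under the replicate block, and 0 to 1 leaving out 1 array each. With shared probe sets left out 1 was lower, BIRC5. Coactivators and TEAD factors called higher numbered 2 by the mean of probe sets. The causes were not tested. Over probe sets above the median signal, deviations of same-numbered arrays from their group means correlated at -0.22, 0.32 and -0.32. By the same measure 2 of 6 arrays correlated best with their own number. With the replicate block 2265 probe sets were higher, against 2656, and THBS1 201108_s_at had an adjusted p = 0.0563. ANKRD1, CRIM1 202552_s_at and THBS1 201109_s_at, 201107_s_at and 215775_at have no value with dim probe sets left out.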

Other observations

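Relatives and ligands of the members were mostly dim and mostly did not pass. Of 12 measured, 1 was higher and 0 were lower, and 5 had means below the offset in both groups (limma, adjusted over genes). Over all genes 14.7% were higher and 17.8% lower. Among the other CCN proteins, CCN3, CCN4, CCN5 and CCN6 did not pass, and THBS2, THBS3 and THBS4, the other thrombospondins measured, did not either. For AXL, the sister receptors TYRO3 (279, 267 and 263 against 234, 236 and 255) and MERTK (119, 112 and 108 against 119, 94.4 and 134) did not pass. TYRO3 was lower in every NFX1-91 shRNA array, with a log2 fold change of -0.15 (SE 0.073, limma adjusted p = 0.164). The ligand GAS6 read 357, 318 and 317 against 335, 364 and 322 and did not pass. PROS1, protein S, a ligand of TYRO3 and MERTK and a cofactor of anticoagulation, rose from 131, 148 and 141 to 168, 174 and 193 (log2 fold change 0.32, SE 0.093, limma adjusted p = 0.0246). It did not pass without control array 1 (0.0620), control array 3 (0.0601), NFX1-91 shRNA array 2 (0.0723) or NFX1-91 shRNA array 3 (0.0765).

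Among 5981 genes above the median signal, those whose centred log2 values over the 6 arrays lay closest to CCN2 were RFTN1, DDX3Y and THAP12, with root mean square differences of 0.09, 0.10 and 0.10. By its construction, the measure favours genes with a rise of like size. RFTN1, a lipid raft protein, read 97.1, 96.1 and 74.6 in control arrays and 204, 239 and 248 in NFX1-91 shRNA arrays.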
